A study of Mus musculus with 14 samples.

Results

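The cells described here are all cells of the 3 apical and the 3 basal libraries of the mouse spiral ganglion at embryonic day 16 (E16), 2478 of the 5441 cells of the series. Apex gave 1368 cells and base 1110. The animals were CD1 mice with no treatment and no altered gene, and each replicate pooled the ganglia of a litter of its own. The ganglia of each E16 replicate were cut across the middle turn, so apex 1 and base 1 come from the same pool, and likewise for numbers 2 and 3. Ganglia carried some sensory epithelium and mesenchyme when they were dissociated with trypsin. The other libraries, used only as a scale of age, were 3 at E14 (1637 cells, trypsin) and 3 at E18 (862 cells, papain), and 2 at postnatal day 1 (P1, 464 cells, papain).

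Spiral ganglion neurons carry sound from the hair cells of the cochlea to the brainstem. Those of the base serve high tones and those of the apex low tones, and development runs along the cochlea with the base ahead of the apex. Type I neurons, which contact inner hair cells, are divided into IA, IB and IC, of which IA neurons express the calcium-binding protein gene Calb2 (calretinin) and IB and IC neurons express Lypd1 and, in part, Calb1 and Pou4f1. Type II neurons contact outer hair cells and express Prph (peripherin) and, later, Th.

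Depth differed between libraries. UMI totals (unique molecular identifiers, 1 per captured transcript) ran from 1327692 to 3435044, and the median cell held between 2769 UMIs in base 2 and 9537 in base 1. The 6 libraries shared 0 cell barcodes. Summed markers of spiral ganglion neurons were 3443 to 3475 CPM (counts scaled to 1000000 UMIs) in apex and 3638 to 3819 in base. Summed glial markers were 51.2 to 69.0 CPM in apex and 54.5 to 72.3 in base, and cycling-cell markers 12.5 to 16 and 11.9 to 15.8. Markers of otic mesenchyme were 48.0 to 79.3 CPM in apex and 105.5 to 146.8 in base, mostly through Dcn, and their part in the results below was not tested. Markers of supporting epithelium were 13.4 to 16 CPM in apex and 4.49 to 10.5 in base, mostly through Epcam, and their part was not tested either. The summed list of 11 general neuronal markers was 16660 to 18310 CPM in apex and 12100 to 13240 in base. Its members were split: Nefl and Nefm were higher in apex, Snap25 and Rbfox3 were higher in base, and the ranges overlapped for Stmn2, with 3750 to 3959 CPM in apex and 3468 to 3986 in base. The haemoglobin gene Hbb-bs, which neurons do not make, had a UMI in 16.1% to 90.6% of cells per library, in both portions of replicate 3 in the fewest.

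Summed counts were compared in 1 fit over all 11340 tested genes with the replicate number as a block, and a gene is called when its Benjamini-Hochberg adjusted p in edgeR's quasi-likelihood test is under 0.05. The log2 difference is apex minus base, so positive values are higher in apex. Of the tested genes 10.2% were called, 1162 in all: 497 higher in apex (4.38%) and 665 higher in base (5.86%). Counts of calls per list below are to be set beside these shares. The median gene differed by 0.00 on the log2 scale. All 1162 also had the same direction without the block, and 1126 had it when each replicate was left out in turn, where a gene under the count filter is not counted. The design is balanced and these fits share libraries, so such agreement was largely given and is no separate support. The number called was 1373 without replicate 1, 722 without replicate 2 and 724 without replicate 3. It was 326 with DESeq2 and the same block, 591 after each cell was thinned to 2000 UMIs and 458 in cells with at least 5000 UMIs, which leaves 11 cells in base 2, and 229 genes were called in all of the fits without the block, with DESeq2, with limma voom and with each replicate left out. Such a difference in summed counts cannot tell fewer expressing cells from less RNA per cell.

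**Figure D1:**
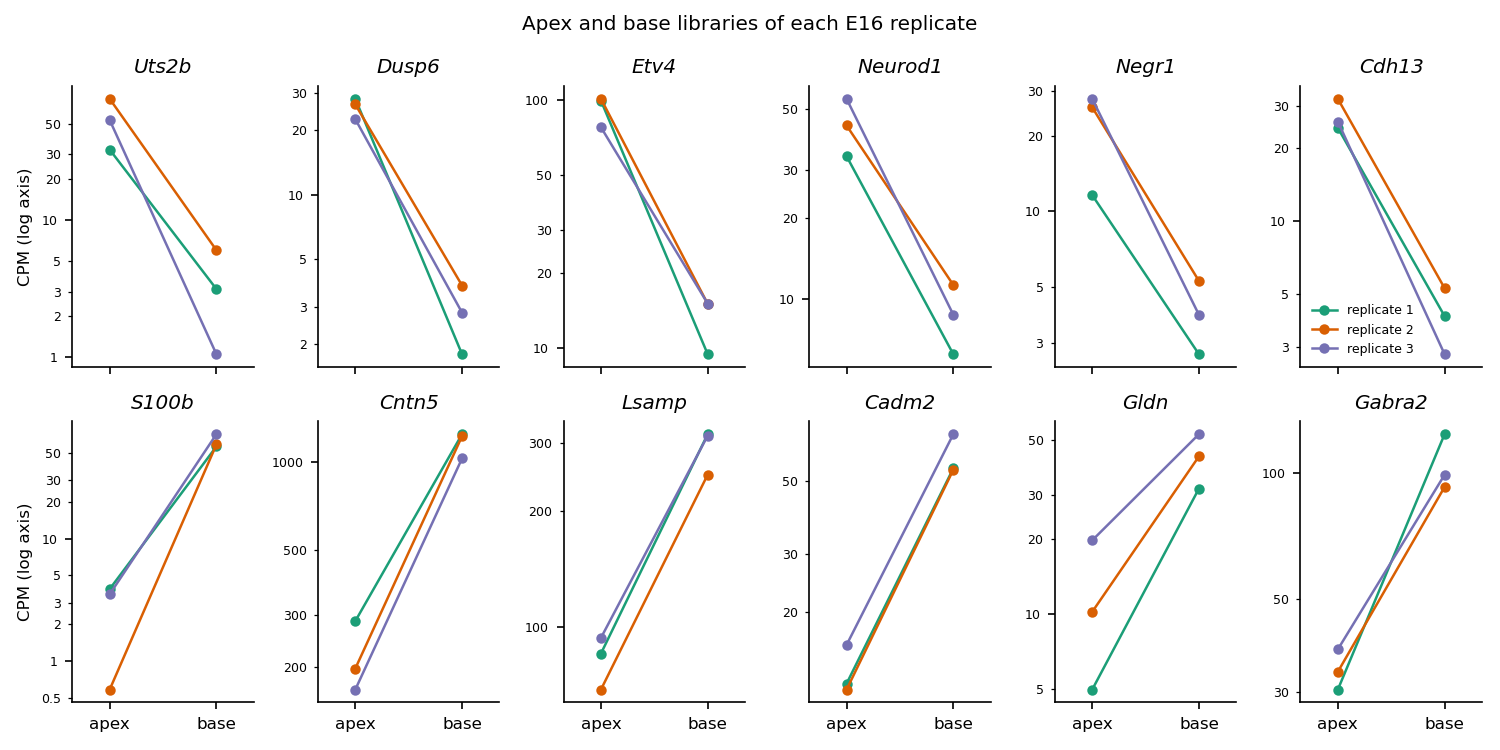
CPM of 12 genes in the apex and base library of each E16 replicate, on log axes that differ between panels; each line joins the libraries of 1 replicate. In the upper row every apex library lies above every base library, from Uts2b at 32.5 against at most 6.03 CPM to Cdh13 at 24.3 against at most 5.27 CPM, and in the lower row every base library lies above every apex library.

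Uts2b, which encodes the neuropeptide urotensin 2B, had 32.5, 76.3 and 53.5 CPM in apex 1, 2 and 3 and 3.14, 6.03 and 1.05 CPM in the matching base libraries, a log2 difference of 4.12 (SE 0.25, adjusted p = 2.3e-16). S100b, a calcium-binding protein gene, was reversed, with 3.86, 0.582 and 3.50 CPM in apex and 56.6, 58.8 and 71.3 CPM in base, a log2 difference of -4.70 (SE 0.24, adjusted p = 1.2e-18). Every base library was above every apex library for S100b. S100b is also expressed in glia, and the glial marker Sox10 had 0.291 to 1.66 CPM in apex and 0.898 to 1.51 CPM in base; the part of glia in the S100b difference was not tested. Uts2b lies at chr16:27353322-27370239 on the minus strand and S100b at chr10:76253853-76261159 on the plus strand (mm10, GENCODE M21).

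Further genes among the 12 largest in apex were Sobp (2.98, SE 0.26), the basement membrane gene Hmcn1 (2.62, SE 0.16), Rgs4, which shortens G protein signals (2.26, SE 0.19), and the adhesion receptor gene Adgrg1 (2.21, SE 0.24). Among the 12 largest in base were Plekha7 of adherens junctions (-3.20, SE 0.26), the calcium-dependent membrane-binding copine Cpne9 (-2.45, SE 0.20), the adaptor Dok1 (-2.34, SE 0.19), the adrenergic receptor gene Adra2c (-2.09, SE 0.24) and the transcription regulator gene Mab21l2 (-1.99, SE 0.14). The proteoglycan gene Dcn was also among them, with 11.9 to 17.5 CPM in apex and 64.6 to 92.6 CPM in base. Dcn is a marker of mesenchyme, and of the other mesenchymal genes Col1a2 was higher in base (-1.67, SE 0.30) while Pou3f4 was higher in apex (0.60, SE 0.20, adjusted p = 0.047, and 0.26 without replicate 1 and 0.28 without replicate 2) and Lum passed no threshold (-0.28, SE 0.26).

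Fibroblast growth factors act through receptor kinases and ERK, which switches on the ETS factors Etv1, Etv4 and Etv5 and the phosphatases Dusp4 and Dusp6 that damp the signal. Of 18 tested genes on the list of this pathway 6 were higher in apex and 1 in base, and the median log2 difference was 0.41. Without the block 4 were called in apex and 0 in base, and without replicate 2 the counts were the same 4 and 0 with the block. Dusp6, the ERK phosphatase, had 28.1, 26.5 and 22.6 CPM in apex and 1.80, 3.77 and 2.81 CPM in base (log2 3.19, SE 0.28, adjusted p = 1.3e-11). Etv4 had 99.9, 101.6 and 78.0 CPM in apex and 9.43, 15.1 and 15.1 CPM in base (2.75, SE 0.16, adjusted p = 3.7e-17). For both genes the portions lay far apart, with no overlap. The ligand gene Fgf5 (2.10, SE 0.33), Etv5 (1.17, SE 0.20), Etv1 (1.18, SE 0.37) and Dusp4 (1.11, SE 0.28) were also higher in apex. The adjusted p of Etv1 was 0.087, 0.067 and 0.19 without replicates 1, 2 and 3, and that of Dusp4 was 0.28 without replicate 2. Fgf11, an intracellular member of the FGF family that binds channels and not receptors, was the 1 gene higher in base (-0.57, SE 0.18, adjusted p = 0.035, and 0.32 without replicate 2 and 0.13 without replicate 3).

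The sequence before the Dusp6 start is shown because Dusp6 led the list and ETS factors recognise a GGAA core. The window holds 3 copies of CGGAA or, on the other strand, TTCCG, printed in capitals, and the same window of Etv5, another gene of the list called in apex, holds 0. It covers chr10:99262981-99263230 (GRCm38.p6, plus strand, RefSeq), and the same 5 letters on either strand, searched in the 250 bases before the start, occur in 25.4% of 27025 promoters. Among the called genes with a promoter in the table they occur in 34.8% of 348 higher in apex and 26.4% of 474 higher in base, against 44.3% of the 8376 tested genes that matched. A match of letters is a description and not a site of binding.
Dusp6: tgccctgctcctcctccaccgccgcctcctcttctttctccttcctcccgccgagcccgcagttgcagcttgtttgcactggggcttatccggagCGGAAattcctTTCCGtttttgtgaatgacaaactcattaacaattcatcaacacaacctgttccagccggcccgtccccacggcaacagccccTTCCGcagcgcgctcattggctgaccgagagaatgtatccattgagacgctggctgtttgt

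Insulin-like growth factors are held by binding proteins that proteases cut. In this list of 12 tested genes 4 were higher in apex and 2 in base, and 4 and 1 without the block. The binding protein genes Igfbp2 (132.4, 186.9 and 107.0 CPM in apex, 27.4, 43.7 and 21.4 in base, log2 2.20, SE 0.12), Igfbp4 (1.18, SE 0.13) and Igfbp5 (0.97, SE 0.14) were higher in apex, as was the receptor gene Igf1r (0.98, SE 0.14). Pappa, which encodes a protease that cleaves such binding proteins, went the other way with 33.1, 47.2 and 79.3 CPM in apex and 116.2, 128.8 and 138.8 CPM in base (-1.28, SE 0.12, adjusted p = 4.8e-11).

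Thyroid hormone is inactivated by the deiodinase encoded by Dio3. Apex libraries held 11, 36 and 13 UMIs of Dio3, and the base libraries held 0, 0 and 0. Against a floor of 3 counts over the 3 base libraries together (0.469 CPM), the 7.15 CPM of the summed apex was at least 15.3-fold higher. Aldh1a3, a retinoic acid synthesis enzyme, was higher in base (257.7, 297.8 and 329.4 CPM in apex, 358.6, 469.2 and 544.5 in base). Its adjusted p was 1.7e-07 with the block and 0.053 without it. Of 12 tested genes of retinoid and thyroid signalling 2 were called in each direction (33.3% called). Without the block 1 was called in apex and 0 in base.

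**Figure D2:**
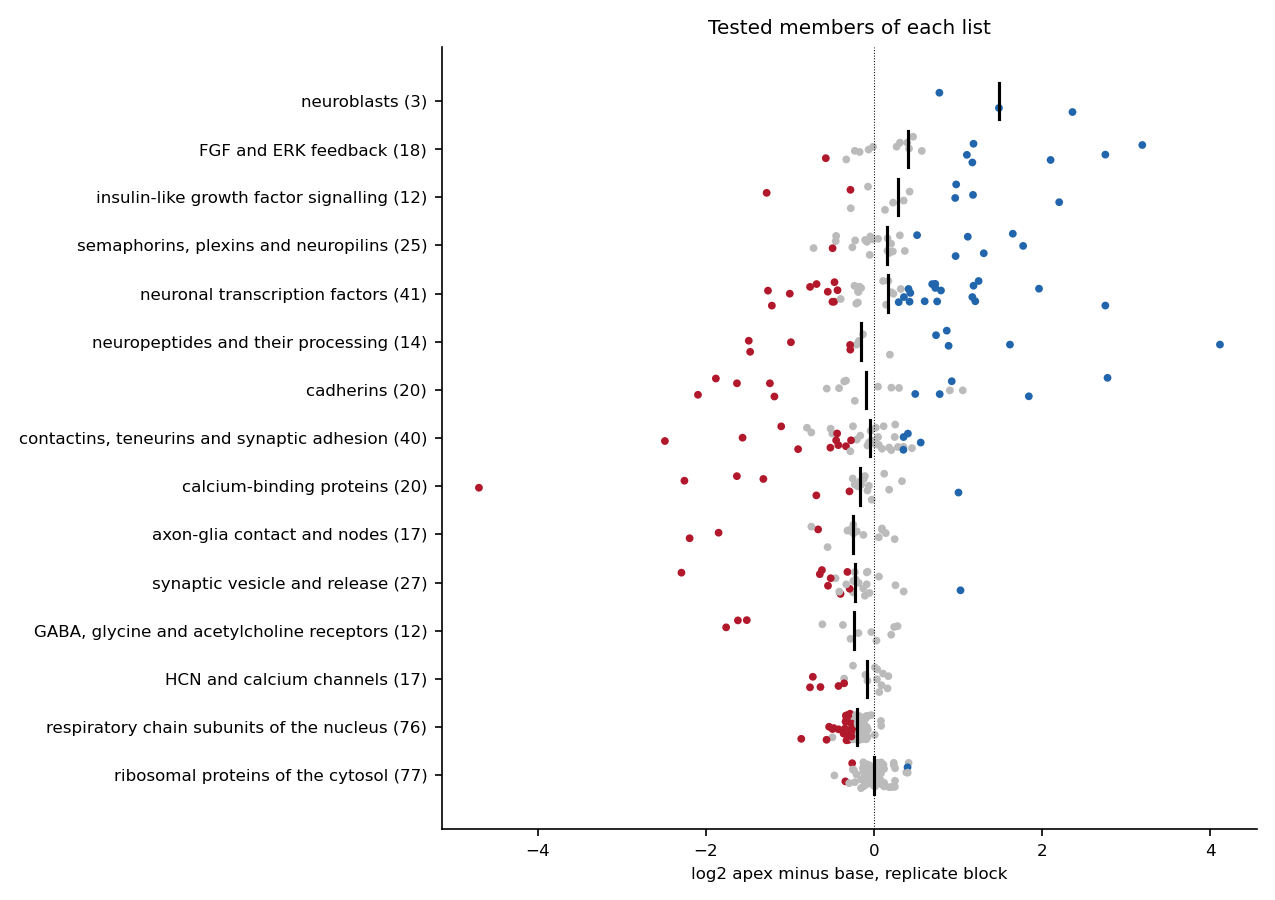
Log2 apex minus base of the tested members of 15 lists, with the number tested in brackets; blue points were called higher in apex, red points higher in base, grey points were not called, and the black bar is the list's median. All 3 neuroblast genes lie to the right, the 25 called respiratory chain genes lie to the left within a narrow range, and cadherins spread widely on both sides of 0.

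Neuronal transcription factors were the list of regulators with the most calls. Of 41 tested, 17 were higher in apex and 10 in base. Without the block these counts were 7 and 3, without replicate 2 they were 10 and 9, and without replicate 3 they were 11 and 8. In apex these included Runx1t1 (1.24, SE 0.11), Zeb2 (1.21, SE 0.17), Nfib (1.96, SE 0.31), Gata3 (655.0, 711.8 and 593.6 CPM in apex, 425.5, 387.1 and 304.6 in base, log2 0.80, SE 0.08), Sox11 (0.73, SE 0.08) and Pou4f1 (0.75, SE 0.12). Higher in base were Nfia (-1.21, SE 0.13), Rbfox3, the RNA-binding protein of mature neurons known as NeuN (-1.0, SE 0.12), Prox1 (-0.76, SE 0.11) and Pou4f2 (-0.68, SE 0.12). The paralogs Nfib and Nfia, Pou4f1 and Pou4f2, and Zeb2 and Zeb1 (-0.49, SE 0.13) were each called in opposite directions. These pairs were picked after their values were seen. Other paralogs were called in the same direction, among them Etv1, Etv4 and Etv5, and Nefl and Nefm. The adjusted p of Nfib was 0.062 and that of Zeb1 was 0.12 without replicate 3.

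Genes of neuroblasts, the dividing or freshly born precursors of neurons, were higher in apex for each of the 3 that could be tested, of 6 on the list. Neurod1 had 33.7, 43.7 and 54.7 CPM in apex and 6.28, 11.3 and 8.78 CPM in base (2.36, SE 0.19, adjusted p = 1.1e-12). Nhlh2 had 53.3 to 57.9 CPM in apex and 16.6 to 23.3 CPM in base (1.49, SE 0.15), and Insm1 differed by 0.78 (SE 0.18), with base 1 at 45.3 CPM above apex 1 at 44.7 CPM. Its adjusted p was 0.0017 with all pairs, 0.089 without replicate 3 and 0.12 with DESeq2. Neurog1, which starts the neuronal programme, was at 0 in all 6 libraries. Of 13 tested genes of S phase and mitosis 2 were called, 15.4% against 10.2% of all tested genes. Both were higher in apex: Cdkn1b, which stops the cycle (0.80, SE 0.11), and Cdk4 (0.31, SE 0.09, adjusted p = 0.012, and 0.10 without replicate 2).

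Cell surface genes moved in both directions. Cntn5, a contactin, had 285.8, 196.8 and 166.8 CPM in apex and 1244, 1224 and 1028 CPM in base (-2.49, SE 0.09, adjusted p = 5.4e-23), the smallest adjusted p of the 11340 tested genes. Of 40 contactins, teneurins and other synaptic adhesion genes 4 were higher in apex and 10 in base, against 0 and 3 without the block, 2 and 7 without replicate 2 and 2 and 6 without replicate 3. Cntnap5a (-1.56, SE 0.13), Adgrl2 (-1.10, SE 0.11) and Cntnap2 (-0.90, SE 0.14) were higher in base, and the teneurin gene Tenm4 (0.56, SE 0.13) in apex. Of 20 cadherins 5 were called in each direction, Cdh13 (2.78, SE 0.25), Pcdh17 (1.84, SE 0.23), Pcdh7 (0.93, SE 0.17), Pcdh11x (0.78, SE 0.14) and Cdh2 (0.49, SE 0.09) in apex and Pcdh20 (-2.09, SE 0.25), Cdh9 (-1.88, SE 0.36), Cdh22 (-1.63, SE 0.31), Cdh12 (-1.24, SE 0.40) and Pcdh9 (-1.18, SE 0.21) in base. Without the block the counts were 3 in apex and 4 in base. The adjusted p of Pcdh11x was 0.090 without replicate 2, and that of Cdh12 was 0.10 without replicate 1 and 0.14 without replicate 2.

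The IgLON genes, 5 small membrane-anchored adhesion molecules of axons, were picked after their values were seen and get no list test. Negr1 had 11.6, 25.9 and 28 CPM in apex and 2.69, 5.27 and 3.86 CPM in base (2.49, SE 0.27). Opcml (1.25, SE 0.09) and Ntm (0.89, SE 0.08) were also higher in apex. Lsamp went the other way, with 85.5, 69.0 and 93.9 CPM in apex and 316.4, 248.6 and 313.7 CPM in base (-1.84, SE 0.09, adjusted p = 6.5e-19). Iglon5 stood between them at -0.02 (SE 0.11).

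Axon guidance showed a tilt to apex in the semaphorin system, in which secreted or membrane-bound semaphorins steer axons through plexin receptors. Of 25 tested members 6 were higher in apex and 1 in base, and 3 and 0 without the block or without replicate 2. Sema3a had 78.3, 104.8 and 98.7 CPM in apex and 20.7, 30.9 and 35.1 CPM in base (1.65, SE 0.13, adjusted p = 1.7e-13). The receptor gene Plxna2 (1.77, SE 0.29) and Sema6d (0.97, SE 0.19) were higher in apex, and the related receptor gene Plxna1 in base (-0.49, SE 0.14, adjusted p = 0.019, and 0.18 without replicate 2). Eph receptors and ephrins had 2 calls in each direction among 17 (23.5% called). Of 13 tested genes of netrin, Slit and Robo guidance 3 were higher in base and 1 in apex (30.8% called). Without the block 0 were called in either direction. Those in base included the receptor genes Neo1 (-0.54, SE 0.09) and Robo2 (-0.62, SE 0.14). The GDNF family receptors were split, Gfra1 higher in apex (0.97, SE 0.10) and Gfra2 in base (-1.14, SE 0.19), while the neurotrophin receptors Ntrk2 (-0.01, SE 0.09) and Ntrk3 (-0.11, SE 0.08) passed no threshold.

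Genes of synapses and channels were called in both directions. Of 27 synaptic vesicle genes 8 were higher in base and 1 in apex (33.3% called). Without the block 1 was called in each direction, and 3 in base without replicate 3. The calcium sensor of release Syt7 (92.2, 111.2 and 154.7 CPM in apex, 172.8, 152.9 and 213.9 in base, log2 -0.62, SE 0.09), the fusion protein gene Snap25 (-0.51, SE 0.09), and Rims1 (-0.64, SE 0.13) were higher in base. Cplx2, a complexin that clamps fusion, was the exception with 112.6, 144.4 and 156.9 CPM in apex and 75.4, 61.0 and 63.2 CPM in base (1.03, SE 0.11). Glutamate receptor and transport genes gave 3 calls in each direction among 15, with a median log2 difference of 0.09, and 1 in apex and 2 in base without the block. Vesicles are filled with glutamate by 2 related transporters, of which Slc17a6 (VGLUT2) was higher in apex (0.61, SE 0.13, adjusted p = 0.00065, and 0.099 without replicate 2) and Slc17a7 (VGLUT1) in base (-1.32, SE 0.16).

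Of 12 GABA, glycine and acetylcholine receptor genes 3 were called, all in base: Gabra2 (30.4, 33.5 and 37.9 CPM in apex, 123.9, 92.6 and 99.1 in base), Gabrb1 (-1.51, SE 0.25) and Gabra5 (-1.76, SE 0.39). HCN and calcium channel genes had 5 of 17 higher in base and 0 in apex by edgeR, among them Cacna1d (-0.76, SE 0.13). In apex 0 of these genes had an unadjusted p under 0.05 and 0 were called by DESeq2 or voom, and in base 0 were called without the block and 1 without replicate 3. Voltage-gated potassium channels gave 4 in base and 1 in apex of 18 (27.8% called). The 1 in apex was the channel partner Kcnip4 (0.91, SE 0.18, adjusted p = 0.00039, and 0.52 without replicate 3). Without the block the potassium channels gave 1 in base. Of 10 sodium channel genes and partners 40% were called. In base there were 3, among them Fgf12 (-0.50, SE 0.09), and in apex 1, Fgf13 (0.66, SE 0.13, adjusted p = 0.00033, and 0.26 without replicate 3). Both Fgf12 and Fgf13 encode intracellular partners of sodium channels, and they were called in opposite directions. Without the block neither was called (adjusted p = 0.096 for Fgf12 and 0.15 for Fgf13), and the list gave 1 in base and 0 in apex.

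Neurofilaments, the polymers that set axon calibre, differed by subunit. Nefm had 4663, 5655 and 5951 CPM in apex and 1839, 2502 and 2630 in base (1.21, SE 0.08), and Nefl had 3833, 4199 and 3606 CPM in apex and 2058, 2130 and 1993 in base (0.89, SE 0.08). The heavy subunit gene Nefh was lower in apex, with 54.1, 69.6 and 79.6 CPM against 104.1, 158.9 and 183.7 CPM in base (-1.17, SE 0.10). Prph was higher in base (-0.49, SE 0.10, adjusted p = 0.00061, and 0.051 without replicate 2), though base 3 with 227.3 CPM lay just below apex 3 with 231.1 CPM. Among 17 genes of axon-glia contact and nodes 3 were called, all in base: the adhesion gene Cadm2 (-2.19, SE 0.15), Gldn, gliomedin of the nodes of Ranvier (-1.85, SE 0.18), and Nrg1, the axonal signal to Schwann cells (-0.66, SE 0.09).

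Calcium-binding proteins beside S100b gave Vsnl1 (30.9, 27.7 and 42.6 CPM in apex, 97.0, 85.1 and 126.1 in base), Necab1 (-1.32, SE 0.12) and Calb2 in base, and Calb1 in apex (1.01, SE 0.12). In all 6 of the 20 tested were higher in base and 1 in apex, and 4 and 1 without the block. Neuropeptides and their processing enzymes had 5 calls in each direction among 14, and 4 in apex and 2 in base without the block. In apex these were Uts2b, the granule proteins Chgb (0.74, SE 0.10) and Vgf (0.89, SE 0.15), and the processing enzymes Pcsk2 (0.87, SE 0.13) and Pam (1.62, SE 0.28). In base the peptide genes Tac1 (-0.99, SE 0.14), Calca (-1.49, SE 0.31) and Gal (-1.47, SE 0.35) were higher, and Pcsk1n and Chga were called at -0.28 each. Without replicate 3 the counts were 5 in apex and 2 in base, with Pcsk1n at an adjusted p of 0.19 and Chga at 0.39, and Gal was under the count filter.

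Among large families with small differences, the nuclear genes of the respiratory chain stood out by number: 25 of 76 were higher in base and 0 in apex, with a median of -0.21. The 4 with the smallest adjusted p were Ndufv3 (-0.56, SE 0.08), Ndufb2 (-0.53, SE 0.08), Uqcrq (-0.48, SE 0.08) and Ndufa11 (-0.42, SE 0.08). In apex 0 had an unadjusted p under 0.05. The list had 0 calls in either direction without the block. With the block the number in base was 47, 7 and 14 without replicates 1, 2 and 3, 9 with voom and 6 with DESeq2. Of 12 tested mitochondrially encoded genes 4 were higher in base, with 0 without the block, 0 without replicate 2 and 0 without replicate 3. In contrast 3 of 77 cytosolic ribosomal protein genes and 1 of 77 mitochondrial ribosomal protein genes were called, against 10.2% of all genes; the cytosolic ones had 17 calls, 13 of them in apex, without replicate 1. Heat shock proteins and co-chaperones (57 tested), cholesterol synthesis (21) and the Notch pathway (12) had 0 calls in edgeR with the block, 0 without it and 0 with DESeq2. At an unadjusted p under 0.05 they had 7, 6 and 3 genes, and voom called 1, 0 and 0. Without replicate 1 there were 3 heat shock genes called in base. Of 20 immediate early and stress genes 4 were higher in apex, and 2 without the block. They were Dusp1 (0.77, SE 0.11), Fos (0.67, SE 0.12), Klf6 (0.69, SE 0.15) and Jund (0.28, SE 0.08, adjusted p = 0.015, and 0.28 without replicate 2). The adjusted p of Fos was 0.069 without the block and 0.52 with DESeq2 and the block.

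Collagen genes were called in base for 5 of 12, among them Col2a1 (-0.99, SE 0.18), Col9a1 (-1.17, SE 0.21) and Col9a3 (-0.62, SE 0.13), and in apex for 1, Col26a1 (0.60, SE 0.10). Without the block these counts were 0 and 1. The mesenchymal marker sum was higher in base as well, as given above, and its part in the collagen differences was not tested.

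In edgeR most of the calls came only with the block. DESeq2 with the same block called 326 genes, and limma voom with the block as a random effect called 928. Without the block 309 genes were called (2.72%), 139 higher in apex (1.23%) and 170 in base (1.5%), and all 309 were among the 1162. The 853 genes called only with the block were 358 higher in apex and 495 in base. Their median size was 0.507 on the log2 scale against 1.2 for genes called either way. All 3 pairs pointed in 1 direction for 97.0% of them, against 40.1% of all tested genes, and the portions did not overlap for 64.7%, against 16.1%; both measures come from the data that made the calls. The biological coefficient of variation was 0.0659 with the block and 0.148 without it. With the block a gene had 2 residual degrees of freedom and the prior shared between genes counted for 38.1. Without the block these were 4 and 9.87. The part of the prior in the added calls was not tested.

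**Figure D3:**
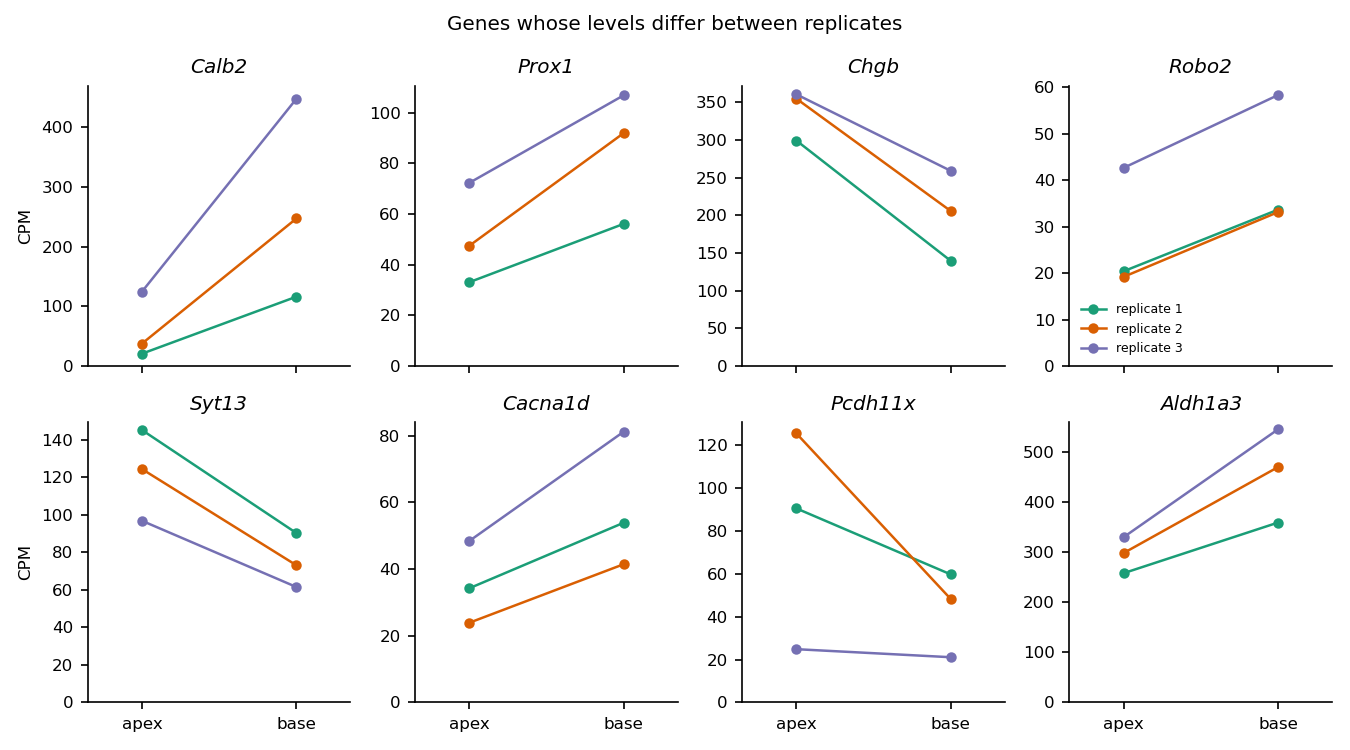
CPM of 8 genes in the apex and base library of each E16 replicate, on linear axes from 0; each line joins the libraries of 1 replicate. The lines run the same way within each panel while their heights differ, as for Calb2, where apex 3 at 124.8 CPM lies above base 1 at 116.2 CPM.

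Calb2 differed both between replicates and between portions. It had 21.0, 37.8 and 124.8 CPM in apex and 116.2, 247.1 and 447.2 CPM in base, so the portions overlapped across replicates while base was higher in each of the 3 pairs. Its log2 difference was -2.25 (SE 0.12), with an adjusted p of 1.2e-18 with the block and 0.036 without it. Left unblocked, it also lost the call when apex 1, apex 2, base 2 or base 3 was left out, with an adjusted p of 0.056 without apex 1. Lrrk1, a kinase gene, had 72.8, 140.3 and 162.3 CPM in apex and 127.5, 274.9 and 317.2 CPM in base, and its adjusted p was 6.5e-11 with the block and 0.15 without. Prox1 (adjusted p 2.8e-06 with the block and 0.20 without) and the growth factor gene Ptn (1.2e-07 and 0.19) were of the same kind. In apex, Chgb (1.7e-07 and 0.069), the synaptotagmin Syt13 (0.67, SE 0.10, adjusted p 2.4e-06 and 0.075) and the transcription factor Ebf1 (0.57, SE 0.08, adjusted p 6.4e-07 and 0.065) were gained.

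The term for the replicate itself was called in 1921 genes (16.9%), and 328 of these were also called between portions. It was called in 1081 genes without replicate 1 and 767 without replicate 3. Rnf121, a ubiquitin ligase gene, had 90.5, 201.2 and 252.1 CPM in apex and 86.6, 153.7 and 211.1 CPM in base. The X-linked protocadherin Pcdh11x differed by both: 90.5, 125.5 and 24.8 CPM in apex and 59.7, 48.2 and 21.1 CPM in base, with an adjusted p between portions of 0.090 without replicate 2. Hbb-bs, the haemoglobin gene, had 243.9, 311.8 and 52.2 CPM in apex and 304.8, 158.2 and 25.3 CPM in base, lowest in replicate 3 of each portion. The litter, dissection and capture that a replicate number stands for cannot be told apart. Hbb-bs passed the threshold between portions (0.41, SE 0.14, adjusted p = 0.045) although pair 1 went the other way, and its adjusted p was 0.79 without replicate 2 and 0.18 without replicate 3.

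Cell states were compared as the share of cells with at least 1 UMI of a marker after each cell was thinned to 2000 UMIs, which left out 40 shallower cells. An exact permutation test over 3 pairs cannot go below a two-sided p of 0.25, so shares are given with their spread and no test, and intervals are exact binomial ones for counting error only. Calb2 was seen in 13 of 328 cells of apex 1 (3.96%, 95% interval 2.13% to 6.68%), 4.48% of apex 2 and 12.4% of apex 3, and in 15.0%, 26.6% and 38.9% of base cells. The mean was 6.95% ± 4.74 (SD, n = 3) in apex and 26.8% ± 12.0 in base, and base was higher in all 3 pairs. At E14 0% to 0.586% of cells had a Calb2 UMI, where 0 of 374 thinned cells, by the floor of 3 counts, allows a share of cells with a UMI of up to 0.802%, and at E18 56.8% to 63.4%.

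Lypd1 went the other way, in 43.3% ± 3.00 of apex cells and 29.5% ± 6.71 of base cells, higher in apex in all 3 pairs. The difference was 22.1 points in pair 2 and 5.20 points in pair 3. The summed level was 0.44 higher in apex (SE 0.09, adjusted p = 0.00048), but 0.28 with an adjusted p of 0.20 without replicate 2 and -0.002 in cells with at least 5000 UMIs, of which base 2 held 11 and the other E16 libraries 185 to 428. Runx1, another IB and IC gene, did not separate the portions (25.7% and 28%), and neither did its summed level (-0.19, SE 0.09). Of 6 type IB and IC markers 4 were higher in apex, and of 6 type IA markers 5 were higher in base and 1, Cdh13, in apex. Without the block the IB and IC list had 1 call in apex and 0 in base, and the IA list 1 in apex and 2 in base. Without replicate 2 the call was lost by Lypd1, as given above, Grm8 (adjusted p = 0.078), Rxrg (0.36) and Mdga1 (0.46), and without replicate 3 by Grm8 (0.62), B3gat1 (0.51) and Mdga1 (0.057). Cells with UMIs of both Calb2 and Lypd1 were 0.888% of apex and 2.52% of base.

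Of type II markers Etv4 was seen in 17.4% ± 2.74 of apex and 2.73% ± 0.399 of base cells, Prph in 21.2% ± 1.59 and 28.4% ± 2.41, and Th in 2.76% ± 1.5 and 2.43% ± 0.146. Of 6 tested type II markers 2 were called in apex, among them Etv4 of the FGF list, and 2 in base, against 2 and 0 without the block. Neurod1 was seen in 8.95% ± 1.64 of apex and 2.03% ± 0.465 of base cells and Nhlh2 in 9.68% ± 1.15 and 3.40% ± 0.385. The cycling gene Mki67 was seen in 0.463% and 0.294%, at which depth a difference was not detectable. Meis2 was seen in 0.531% of apex and 1.81% of base cells, and Grxcr1 in 2.05% and 3.81%. Both were lower in apex in all 3 pairs, but on few cells. Meis2 was seen in 2, 2 and 3 cells of apex 1, 2 and 3 and in 5, 8 and 6 base cells. Grxcr1 was seen in 8, 10 and 9 apex cells and 14, 10 and 13 base cells. For both genes the binomial intervals of apex and base overlapped in every pair, so counting error alone could cover these differences in share. The summed levels of Meis2 and Grxcr1 were called in base, with an adjusted p without replicate 3 of 0.18 for Meis2 and 0.094 for Grxcr1.

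Position was then set against age. E18 and E14 libraries, which are not part of the apex and base comparison, differed in 34.8% of 11256 tested genes, 18.8% higher at E18 and 16% (1804 genes) higher at E14; the latter were 1181 without E14 replicate 3. The enzyme also differs between these ages and cannot be told apart from age. Of 489 genes called higher in apex and tested by age, 64.8% were higher at E14 and 4.50% at E18, against 15.1% and 18.9% of all 10911 genes tested in both. Of 631 called higher in base, 72.4% were higher at E18 and 2.54% at E14. Across the 1120 called genes the log2 differences correlated with Pearson's r of -0.762, and across all 10911 with -0.574; genes are not independent replicates, and all values share the cell capture and the depth of their libraries.

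**Figure D4:**
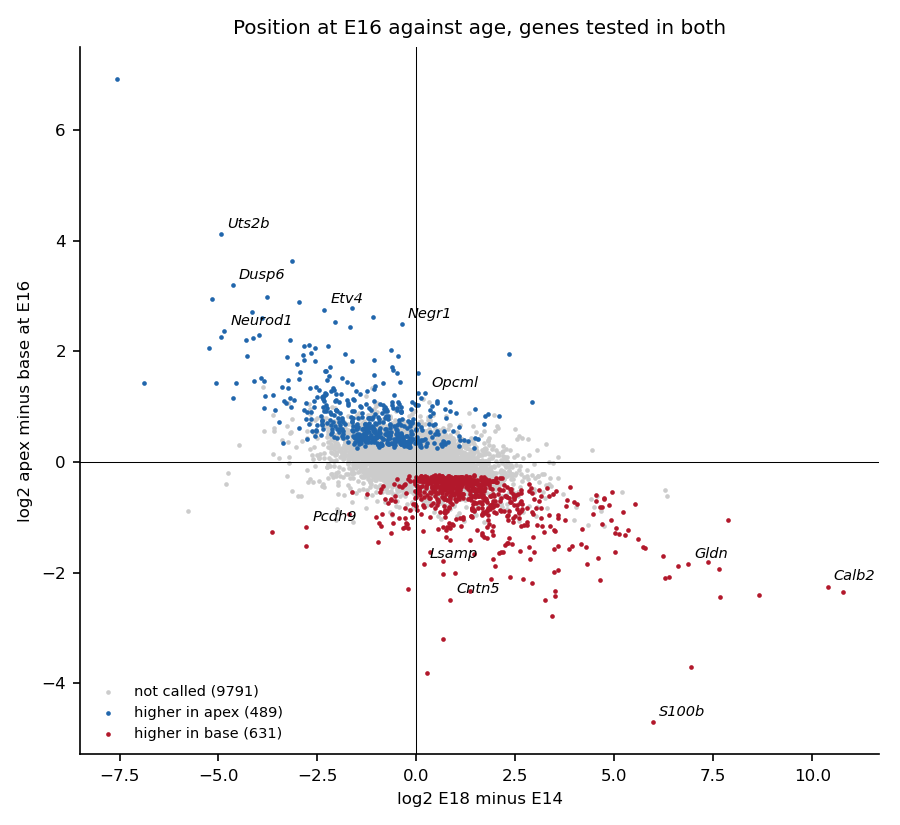
Log2 apex minus base at E16 (vertical) against log2 E18 minus E14 (horizontal), 1 point per gene tested in both, coloured by the call between portions. Genes higher in apex lie mostly at the upper left and genes higher in base at the lower right, while Negr1, Opcml and Lsamp lie between -0.37 and 0.21 on the age axis and Cntn5 at 0.85; the point above all others is Dio3, whose base counts are 0.

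The lists are set beside the shares over all called genes tested by age. Of those called in apex 64.8% were higher at E14, and of those called in base 72.4% were higher at E18. All 6 FGF genes and all 6 semaphorin genes called in apex were higher at E14, as were the 4 apex genes of the insulin-like growth factor list. Whether called or not, 8 of 17, 12 of 24 and 8 of 12 genes of these lists tested by age were higher at E14. Of the called calcium-binding genes in base 5 of 6 were higher at E18, and of the 8 synaptic vesicle genes 5 were. Both lie not far from the share over all genes called in base. All 25 respiratory chain genes called in base were higher at E18, but so were 67 of the 76 on that list. Of the 17 transcription factor genes called in apex 14 were higher at E14 and 1 at E18, and of the 10 called in base 5 were higher at E18 and 3 at E14. Of the 4 mitochondrially encoded genes called in base 0 were higher at either age, likewise 0 of the 4 Eph and ephrin genes, and of the 4 immediate early genes called in apex 1 was higher at E14. Genes with a clear difference by position and none called by age were chosen after their values were seen. They were Cntn5 (age 0.85, adjusted p = 0.12), Lsamp (0.18, adjusted p = 0.41), Plekha7 (0.68, adjusted p = 0.18), Negr1 (-0.37, adjusted p = 0.41), Opcml (0.21, adjusted p = 0.50) and Cplx2 (0.05, adjusted p = 0.85). Others went against the line: Cdkn1b (0.75) was higher in apex and at E18, and Pcdh9 (-2.78), Nrg1 (-0.63), and Smad7 (-0.73) were higher in base and at E14.

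Each cell was placed on the age axis by its late fraction. This is the share of UMIs from 200 genes higher at E18 among those from these and 200 genes higher at E14. Neither set was limited to neuronal genes. The haemoglobin genes Hba-a1, Hbb-bs and Hbb-bt are among those higher at E14, and Dcn, Col9a3 and S100b among those higher at E18. The part of such genes in the late fraction was not tested. Median late fractions were 74.1%, 65.3% and 69.8% in apex 1, 2 and 3 and 81.0%, 81.9% and 82.1% in base, between 20.5% to 39.1% at E14 and 91.4% to 95% at E18. Apex was lower in all 3 pairs, by 12.0 points on average (-12.0 ± 4.85, SD, n = 3 pairs), which is 19.0% of the span from E14 to E18. Quartiles over cells were 53.3% and 74.4% in apex 2 and 77.8% and 85.3% in base 2. Of the genes higher at E14, 185 were tested at E16, and 115 were called in apex and 3 in base. Of those higher at E18, 197 were tested, and 2 were called in apex and 139 in base. Without the genes called between portions the difference was -3.31 points on average, with pair 1 at 0.251. Those genes were called in these same libraries, so a smaller difference was largely given in advance. The scale moved too, with means of 47.9% at E14 and 88.7% at E18.

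The late fraction was then taken within cells by their Calb2 and Lypd1 UMIs, leaving these 2 genes out of it, a step added after the first results were seen. In cells with a Calb2 UMI the medians were 84.4%, 79.3% and 77.7% in apex and 82.8%, 83.1% and 82.4% in base, a mean difference of -2.32 ± 3.44 points (SD, n = 3 pairs), with only 13, 24 and 61 such cells in apex. In cells with Lypd1 and no Calb2 UMI they were 67.7%, 55.4% and 56.1% in apex and 81.2%, 81.9% and 81.5% in base, a difference of -21.8 ± 7.22 points. Cells with neither differed by -8.29 ± 3.23 points. Lypd1 was also seen in 24.4% to 29.1% of E14 cells.

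**Figure D5:**
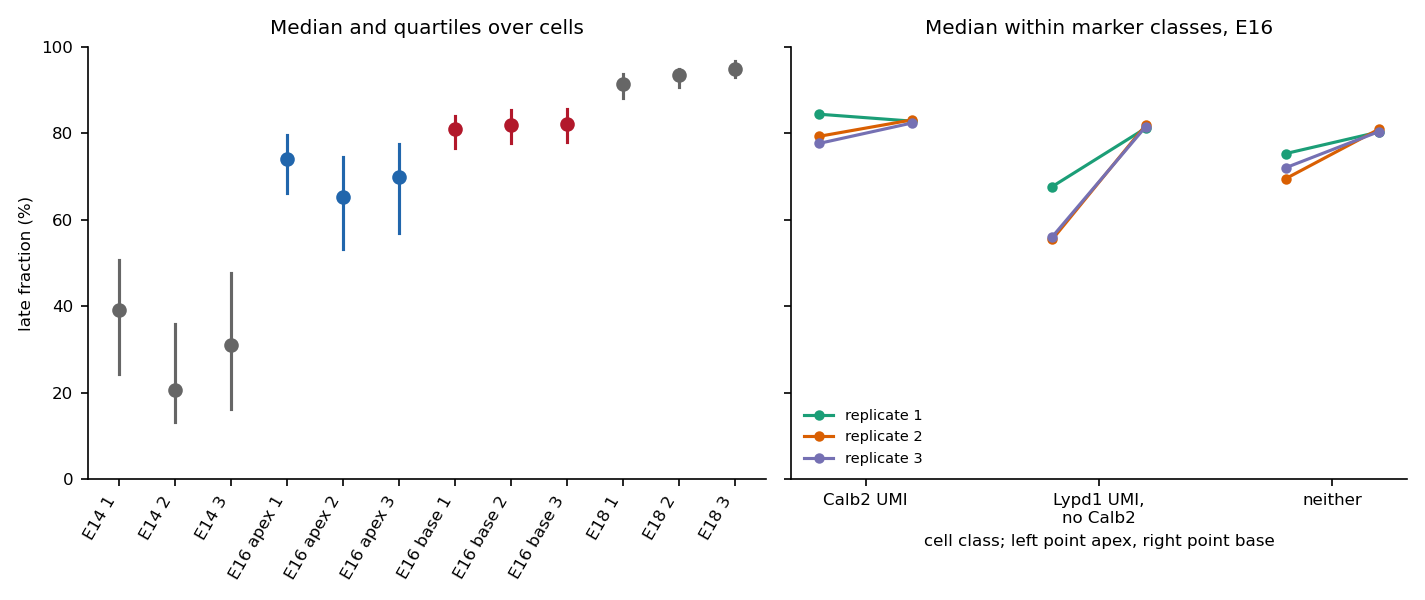
Late fraction in percent: left, median and quartiles over cells of each library at E14 (grey), E16 apex (blue), E16 base (red) and E18 (grey); right, median in each E16 library within 3 classes of cells, with apex as the left and base as the right point of each line. In the left panel base medians lie between 81.0% and 82.1%, in the right panel between 80.3% and 83.1%, and the lines are steepest for cells with Lypd1 and no Calb2 UMI.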

How the data were processed

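The authors deposited 2 tables over all 5441 cells of droplet single-cell RNA libraries: UMI counts per gene and cell, and the natural log of 1 plus the counts scaled to 10000 UMIs of the cell. Cell Ranger 3.0.1, Seurat 3.2 and the mm10 build are named, per the submitters' processing notes, with no roles, and filters on cells and doublets are not given in the sources used here. Each cell was given to its library by the suffix of its barcode, which matches the sample names in the labels. The count table as read holds 17999 of the 26655 genes of the normalized table. Counts of the other 8656 genes (32.5% of genes, 28.2% of UMIs) were recovered from the deposited natural log values, where 100% of nonzero values came out whole within 0.001, and 0 values disagreed in genes that both files hold. No cell was removed, and doublets were not called.

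UMI counts were summed per library over all cells and tested with edgeR 4.0.16 (filterByExpr, TMM, quasi-likelihood fit, R 4.3.3) on the 6 E16 libraries with the replicate number as a block. Standard errors are the absolute log2 difference over the root of F. According to the labels, apex and base of a number are 1 litter's ganglia cut apart. Deviations from the portion means correlated at r = 0.465, 0.302 and 0.496 in the 3 pairs and at most -0.055 between unlike numbers. The 3 deviations of a portion add to 0, so positive values in the pairs force negative ones between unlike numbers on average. The unlike values are therefore no separate check of the pairing. Positions were found for 11027 of the 11340 tested genes in GENCODE M21. Counts were also simulated over 11260 genes, of which 199 were changed, with a fixed coefficient of variation above the 0.0659 of the real blocked fit. Both portions of a number got the same replicate deviation, so the block was bound to gain. The blocked fit recovered 87.9% of genes changed by 1 and 32% of genes changed by 0.5 on the log2 scale. Of its 126 calls 7 were false (5.56%). Without the block 41.4% and 1% were recovered. The false share among the 1162 real calls was not tested.

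E18 was compared with E14 in a fit of its own without a block. The late fraction used the 200 genes of smallest p in each direction of that fit. For shares of cells, each cell was thinned to 2000 UMIs, and 40 E16 cells with fewer, 26 of them in base 2, were left out. Floors are 3 counts and intervals 95% Clopper-Pearson ones.

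Genes were named by a rule: the 12 largest differences in each direction with at least 20 CPM in the higher portion and 1 direction in all 3 pairs, up to 4 of smallest adjusted p per list, 6 in each direction called only with the block, the 8 of smallest p for the replicate, and the cell state markers. A few further members of the lists are named to account for counts of calls, chosen after their values were seen. The members and lists were chosen with earlier results of these data known. Alternatives were no block, the block as a random effect (limma 3.58.1), DESeq2 1.42.0, RLE size factors, no scaling, no filter, deeper or thinned cells, the genes of the count table alone, and libraries left out.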

Additional observations from a re-analysis of the deposited data

How the results depend on the processing

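The number of genes called between apex and base, 1162 with the replicate block (497 in apex and 665 in base), depended on the block, the tool and the depth. Without the block it was 309 (139 and 170), and with all 14 libraries in 1 unblocked fit 220 (100 and 120). DESeq2 with the block called 326 (139 and 187), cells of at least 5000 UMIs gave 458 (197 and 261), and cells thinned to 2000 UMIs gave 591 (242 and 349). With 1 replicate left out the counts ran from 722 to 1373 (apex 310 to 600, base 411 to 773). With no block and 1 library left out they were 339 (182 and 157) without apex 1, 127 (59 and 68) without apex 2, 285 (126 and 159) without apex 3, 258 (103 and 155) without base 1, 184 (82 and 102) without base 2 and 165 (81 and 84) without base 3. RLE size factors, no scaling, no filter, limma voom and the genes of the count table alone kept the counts within 1.5 times. The cause of these shifts was not tested.

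Of the 208 genes taken by the naming rule, 110 lost the call without the block, 28 with limma voom and 86 with DESeq2. In cells of at least 5000 UMIs 72 of 203 lost it, and 41 of 187 in thinned cells. Directions reversed in few genes: Lypd1 stood at -0.0021 in cells of at least 5000 UMIs. Without the block, Hbb-bs turned to -0.18 without apex 2 and -0.22 without base 3, Malat1 to -0.028 without apex 3, mt-Nd1 to 0.14 without apex 1 and 0.0090 without base 2, and mt-Nd4 to 0.021 without apex 1; the cause was not tested.

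The replicate effect was called in 767 to 1794 genes with 1 replicate left out, against 1921. Genes higher at E14 than at E18 numbered 1181 to 2402 with 1 library left out, against 1804. With a replicate block, although the numbers of different ages are different litters, E18 against E14 gave 3612 genes against 3919. The late fraction difference of -12.0 points was -18.4 with 100 genes each and between -14.5 and -9.62 with 1 replicate left out. Without the genes called between portions it was -3.31, with pair 1 at 0.251. Those genes were called in these same libraries, so the smaller value was largely given in advance.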
